A study of Mus musculus with 6 samples.

Results

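Genes that build cholesterol and fatty acids were examined in the livers, ovaries and uteri of immature mice given fluorene-9-bisphenol (BHPF), a bisphenol with a fluorene ring that is used in plastics sold as free of bisphenol A. The genes were picked by name from the pathway and not by a cut on a measured value, though earlier results of these data were known. They are 34 of the 20284 genes named on the arrays: 17 enzymes of the sterol pathway, 6 genes that control or carry sterols, and 11 genes of fatty acid synthesis, called the lipogenic genes here. Their RNA was read by 48 of the 55681 probes, and all 34 genes had a probe well above background on each of the 6 arrays.

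The animals were female CD-1 mice, an outbred stock, of 24 days of age by the labels. They received 50 mg per kg body weight of BHPF in peanut oil by stomach tube once a day for 3 days, or peanut oil alone. The labels and the study's methods differ on whether that age was reached at the first dose or at death. Both groups gave liver, ovary and uterus, and the RNA of 3 mice was pooled for each of the 6 one-colour Agilent arrays, so that each combination of tissue and treatment had 1 array. The spread between animals was not measured. The 3 control arrays lay in the first position of their row of the slide with the 3 BHPF arrays beside them, which means that treatment and slide position cannot be told apart.

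Cholesterol is made from acetyl-CoA through mevalonate, isoprenes, squalene and lanosterol, with an enzyme for each step. Fatty acids are made from the same acetyl-CoA, with malonyl-CoA as the building block and NADPH as the reductant, and are then desaturated and elongated. Both routes are driven by the sterol regulatory element-binding proteins, which are the products of Srebf1 and Srebf2. SCAP escorts them out of the endoplasmic reticulum when sterol is low, and the INSIG proteins hold them back when it is high. The product of Srebf2 acts mostly on the sterol enzymes and that of Srebf1 mostly on the lipogenic enzymes. The liver is a chief site of both routes in many mammals, and steroid-forming cells of the ovary use cholesterol as their starting material.

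A level is given here as the log2 intensity of a gene minus the 75th percentile of its array, so that a level of 0 lies at that percentile and a difference of 1 is 2-fold. Levels of different genes come from different probes and were not set against each other. Markers of each tissue were detected on its own arrays. Of 10 hepatocyte markers, 10 were well above background on both liver arrays, as were 8 of 8 markers of granulosa and steroid-forming cells and 4 of 4 oocyte markers on both ovary arrays and 6 of 6 uterine markers on both uterus arrays. Detection alone did not separate the tissues. Hepatocyte markers were also well above background on both ovary arrays (10 of 10) and the uterus arrays (9 and 10). So were 4 of the 8 granulosa and steroid-forming markers on control liver and 5 on control uterus. The median level of these 8 was 1.82 in control ovary, -5.78 in control liver and -4.77 in control uterus. Among them, Foxl2 was higher in liver (1.27 and 1.43) than in ovary (0.71 and 0.73). The BHPF uterus array stood apart. The summed linear level of the hepatocyte markers, relative to the 75th percentile, was 19.0 on it and 0.944 on the control uterus array, against 304 and 284 in liver and 4.17 and 4.76 in ovary. Group medians and the effect common to the tissues are therefore also given without it. The authors' own table of values holds the uterus arrays under exchanged headings. The labels of the scanner files were followed, and which of them is right is not known from the sources used here. Under the headings of the table, every uterus ratio of BHPF over control turns its sign and the hepatocyte markers lie on the control array.

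The region around the start site is shown for 7 of the genes, 4 sterol enzymes and 3 lipogenic genes, whose tissue differences are described below. These promoter windows run from 250 bases before the start site to 50 bases after it, on the strand of the gene, and are taken from RefSeq on the build GRCm38.p6, in which 27 of the 34 genes had a window. Capitals mark CCAAT, read on either strand (ATTGG on the opposite one), and the match to TCACNCCAC, a form of the sterol regulatory element.
Hmgcs1, chr13:119690101-119690400, plus strand: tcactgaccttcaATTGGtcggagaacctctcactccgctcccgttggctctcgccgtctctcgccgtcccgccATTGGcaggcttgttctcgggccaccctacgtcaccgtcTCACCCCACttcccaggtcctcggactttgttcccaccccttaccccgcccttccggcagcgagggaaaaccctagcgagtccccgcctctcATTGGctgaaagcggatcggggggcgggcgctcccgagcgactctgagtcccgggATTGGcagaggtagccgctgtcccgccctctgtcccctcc
Cyp51, chr5:4104648-4104947, minus strand: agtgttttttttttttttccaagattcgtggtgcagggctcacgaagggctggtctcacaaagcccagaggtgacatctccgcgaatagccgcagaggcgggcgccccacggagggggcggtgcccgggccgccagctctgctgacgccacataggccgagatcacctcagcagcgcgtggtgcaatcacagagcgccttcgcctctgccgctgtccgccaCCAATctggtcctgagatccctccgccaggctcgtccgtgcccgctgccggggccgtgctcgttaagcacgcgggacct
Hsd17b7, chr1:169969156-169969455, minus strand: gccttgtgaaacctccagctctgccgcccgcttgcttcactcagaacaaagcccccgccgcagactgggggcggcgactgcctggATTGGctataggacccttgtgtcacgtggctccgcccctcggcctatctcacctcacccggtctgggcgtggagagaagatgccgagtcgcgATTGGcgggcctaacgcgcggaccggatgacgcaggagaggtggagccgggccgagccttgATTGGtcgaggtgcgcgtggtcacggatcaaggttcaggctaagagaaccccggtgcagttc
Sc5d, chr9:42264251-42264550, minus strand: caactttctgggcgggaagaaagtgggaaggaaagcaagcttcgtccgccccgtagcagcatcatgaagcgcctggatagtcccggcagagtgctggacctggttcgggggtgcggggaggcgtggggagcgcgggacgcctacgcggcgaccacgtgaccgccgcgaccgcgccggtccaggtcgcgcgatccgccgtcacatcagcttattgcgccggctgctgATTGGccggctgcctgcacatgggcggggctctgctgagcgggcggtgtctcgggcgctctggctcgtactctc
Fasn, chr11:120824498-120824797, minus strand: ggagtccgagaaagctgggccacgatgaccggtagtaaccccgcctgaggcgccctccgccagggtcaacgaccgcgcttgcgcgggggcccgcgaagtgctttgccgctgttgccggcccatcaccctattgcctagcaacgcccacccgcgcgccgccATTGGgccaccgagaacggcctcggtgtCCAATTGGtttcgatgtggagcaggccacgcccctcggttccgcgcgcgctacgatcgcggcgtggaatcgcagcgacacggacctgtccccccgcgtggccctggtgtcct
Thrsp, chr7:97417501-97417800, minus strand: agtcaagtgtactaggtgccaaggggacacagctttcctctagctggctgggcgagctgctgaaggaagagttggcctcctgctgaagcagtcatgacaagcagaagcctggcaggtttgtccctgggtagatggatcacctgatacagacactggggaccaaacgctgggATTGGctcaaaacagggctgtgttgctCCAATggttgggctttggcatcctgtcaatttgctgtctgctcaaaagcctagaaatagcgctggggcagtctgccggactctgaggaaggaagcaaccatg
Me1, chr9:86695865-86696164, minus strand: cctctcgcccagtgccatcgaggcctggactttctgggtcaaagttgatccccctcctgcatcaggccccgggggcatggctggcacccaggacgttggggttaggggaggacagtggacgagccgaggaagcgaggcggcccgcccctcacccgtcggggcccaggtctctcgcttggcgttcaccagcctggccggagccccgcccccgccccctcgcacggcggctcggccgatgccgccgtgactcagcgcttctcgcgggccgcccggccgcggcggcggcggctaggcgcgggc

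Most windows of the sterol enzymes were alike in one respect that the choice of genes did not use. CCAAT, the letters bound by the factor NF-Y, lay in 14 of their 17 windows, against 37.4% of all windows. Counted by gene, it lay in a window of 14 of the 14 sterol enzymes that had one, in 4 of 5 control genes and in 5 of 8 lipogenic genes. It lay in 41.1% of 27025 genes with windows of the same length. In the Hmgcs1 window shown above it occurs 4 times, and in that of Fasn 3 times, with 2 of those matches sharing bases on opposite strands. The window of Me1 shown holds none, while its other window, not shown, holds 1 at position -208, and Me1 is counted among the 5 lipogenic genes. GGGCGG, a GC box, lay in 13 of the 14 sterol enzymes and 3 of the 8 lipogenic genes, against 38.2% of all genes. CACGTG, an E-box, lay in 6 of the 27 genes, against 8.09%. TCACNCCAC was found in 1 gene, Hmgcs1, where it begins at position -137 from the start site, against 1.44% of all genes. All 4 motifs were read on both strands, a gene with several windows counted when any of them held the motif, and these matches describe letters, not binding.

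Tissue differences were estimated over both treatments, with 2 arrays a tissue, in a limma fit with terms for tissue and treatment that ran over 38439 genes and unnamed probes. A gene was called when its adjusted p was below 0.05 and the difference was at least 2-fold. In bulk tissue, fewer cells of a type and less RNA per cell cannot be told apart.

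The sterol enzymes formed 1 block. All 17 were higher in liver than in ovary, where 16.3% of all features were called higher in liver and 19.5% lower, and all 17 were also higher in liver than in uterus, where 14.4% were called higher and 19.3% lower. Their median difference was 2.03 on the log2 scale against ovary, from 1.35 to 3.71, and 2.68 against uterus, from 1.55 to 4.67, beside medians of 0.06 and -0.01 over all features. For each of the 17, both liver arrays lay above all 4 other arrays, and the share of all features of which this holds was not counted. With quantile normalization 12 of the 17 were called against ovary and 16 against uterus. The share of all features called under that scaling is not given here, so the lower counts are not read as a trait of these enzymes. Between ovary and uterus, 5 of the 17 were higher in ovary and 0 were lower, where 7.82% of all features were called higher in ovary and 9.14% lower. The median difference of the 17 was 0.69 in favour of the ovary, beside -0.11 over all features. Of the 17, 15 lay above 0, as did 16480 of all 38439 features.

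**Figure D1:**
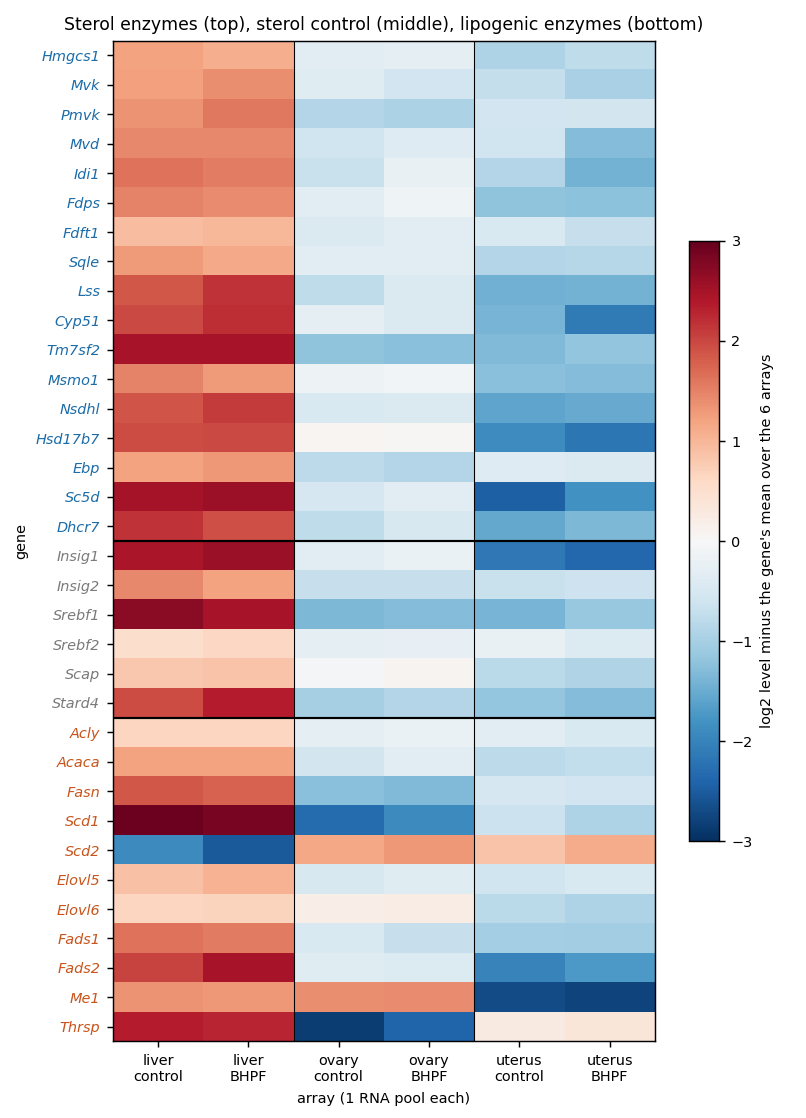
Levels of the 34 genes on the 6 arrays. Each row is a gene, each column an array of 1 RNA pool, and the colour gives the log2 level minus the mean of that gene over the 6 arrays. The 2 liver columns are red for all genes but Scd2, and the control and BHPF columns of a tissue look alike.

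The early enzymes lead from acetyl-CoA to the isoprenes. Hmgcs1, which makes HMG-CoA, had levels of 4.38 and 4.26 in control and BHPF liver, 2.86 and 2.87 in ovary and 2.23 and 2.40 in uterus. It was 2.74-fold higher in liver than in ovary and 4.02-fold higher than in uterus. The kinases and the decarboxylase of mevalonate (Mvk, Pmvk, Mvd), the isomerase Idi1 and the farnesyl diphosphate synthase Fdps were between 3.21-fold and 5.23-fold higher in liver than in ovary, and between 4.08-fold and 6.62-fold higher than in uterus. None of these 6 genes was called between ovary and uterus. Fdps came closest, 1.99-fold higher in ovary (limma's adjusted p = 0.0192), and the levels of Pmvk were lower in ovary than in uterus by 0.36 (adjusted p = 0.154).

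Squalene synthase (Fdft1), squalene epoxidase (Sqle) and lanosterol synthase (Lss) form the squalene steps. Fdft1 and Sqle were 2.54-fold and 2.88-fold higher in liver than in ovary, and Lss 6.10-fold. The 2 probes of Fdft1 did not give the same picture, with liver above uterus by 0.51 on one and 2.59 on the other, so that its mean depends on the probe. Lss was 1.79-fold higher in ovary than in uterus (limma's adjusted p = 0.0310), under the 2-fold limit.

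The enzymes after lanosterol showed the widest range. Tm7sf2, a sterol reductase, had levels of 3.84 and 3.84 in liver, 0.16 and 0.10 in ovary and 0.05 and 0.19 in uterus. Its liver arrays stood over 3 units above the rest, and its ovary and uterus arrays overlapped. The 2 probes of the gene gave 3.17 and 4.24 for liver over ovary, and 3.12 and 4.32 for liver over uterus. The SE of their mean does not cover that spread. The fitted difference was 3.71 ± 0.13 (SE, 2 arrays a tissue) against ovary and 3.72 ± 0.13 against uterus, with limma's adjusted p of 0.000822 and 0.000852, and 0.01 between ovary and uterus, with a 95% interval from -0.36 to 0.39.

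Sc5d, the desaturase that acts late in the route, had levels of 3.95 and 4.01 in liver, 0.94 and 1.12 in ovary and -1.01 and -0.37 in uterus. The 3 tissues did not overlap, and each step was called: liver was 7.72-fold above ovary and ovary 3.30-fold above uterus (limma's adjusted p = 0.00162 and 0.0120). Hsd17b7, the 3-ketosteroid reductase of the sterol route, followed the same order, with levels of 1.76 and 1.78 in liver, -0.13 and -0.16 in ovary and -2.08 and -2.37 in uterus. Ovary exceeded uterus by 4.22-fold (adjusted p = 0.00485), and its 2 probes gave 2.02 and 2.14 on the log2 scale. The lanosterol demethylase Cyp51, the methyl sterol oxidase Msmo1 and the sterol dehydrogenase Nsdhl were 2.65-fold, 2.25-fold and 2.13-fold higher in ovary than in uterus (adjusted p = 0.0387, 0.0128 and 0.0133). These 5 genes are the sterol enzymes called between ovary and uterus, and all of them act after lanosterol. Ebp, the sterol isomerase, lay the other way with a difference of -0.43 (adjusted p = 0.0939), and Dhcr7, which makes the last reduction, was 6.33-fold higher in liver than in ovary and 1.77-fold higher in ovary than in uterus (adjusted p = 0.0546 for the latter).

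**Figure D2:**
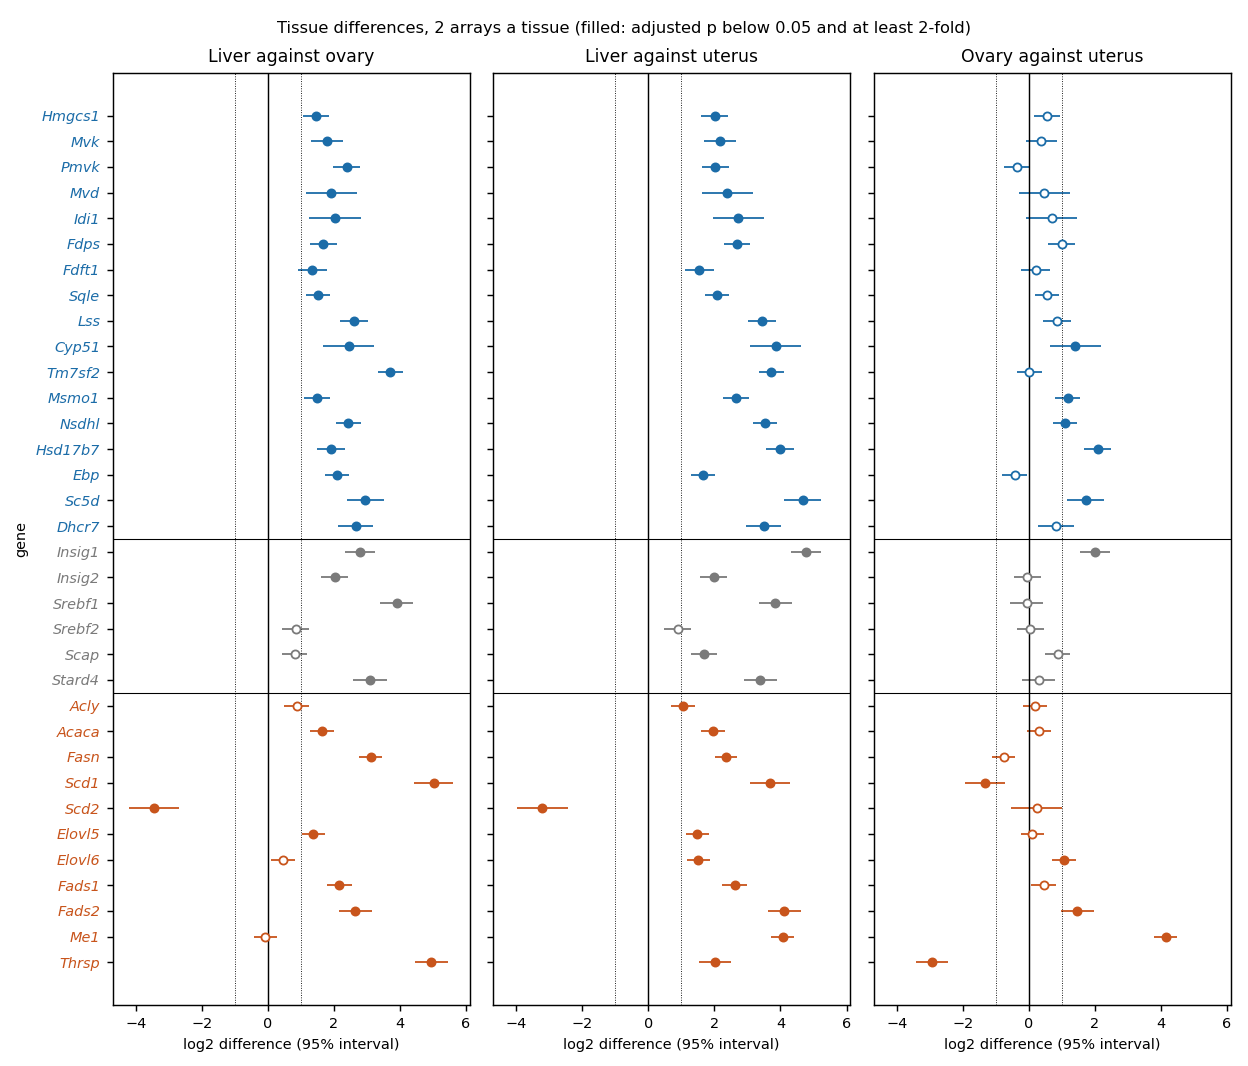
Fitted tissue differences of the 34 genes on the log2 scale, with 95% intervals from limma; filled points passed the adjusted p of 0.05 and the 2-fold limit, and dotted lines mark 2-fold. Sterol enzymes (blue) lie to the right of 0 in both liver panels, while the lipogenic genes (orange) run from -3.44 to 5.02 against ovary and lie on both sides of 0 between ovary and uterus.

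The control genes divided. Srebf1 differed most between liver and ovary, and Insig1 most between liver and uterus. Srebf2 and Scap had the smallest differences from liver in both comparisons. Srebf1 had levels of 2.12 and 1.88 in liver, -1.93 and -1.88 in ovary and -1.97 and -1.71 in uterus. It was higher in liver than in ovary by 3.91 on the log2 scale (limma's adjusted p = 0.000940), and ovary and uterus overlapped. Insig1 had levels of 2.19 and 2.34 in liver, -0.59 and -0.45 in ovary and -2.41 and -2.62 in uterus, with no overlap between tissues. It had the largest difference between liver and uterus of the 34 genes, 27.4-fold (adjusted p = 0.000851), and was 3.98-fold higher in ovary than in uterus (adjusted p = 0.00599). Its relative Insig2 was 4.07-fold and 3.93-fold higher in liver than in ovary and uterus, and the 2 other tissues differed by -0.05, with an interval from -0.46 to 0.36. Stard4, which carries cholesterol through the cytosol, was 8.55-fold higher in liver than in ovary and 10.5-fold higher than in uterus. Srebf2 was higher in liver by 1.80-fold and 1.85-fold, and Scap by 1.76-fold over ovary, which passed the adjusted p (0.0126, 0.0122 and 0.0119 by limma) but not the 2-fold limit, and with quantile normalization the difference of Scap from ovary was -0.13. Scap was 3.21-fold higher in liver than in uterus (limma's adjusted p = 0.00244). It was 1.83-fold higher in ovary than in uterus (limma's adjusted p = 0.0226), under the 2-fold limit. In all, 4 of the 6 were called higher in liver than in ovary, 5 of 6 higher than in uterus. Between ovary and uterus 1 of 6, Insig1, was called higher in ovary. Of all features, 16.3%, 14.4% and 7.82% were called higher in these comparisons.

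The lipogenic genes did not form a block. Of the 11, 7 were called higher and 1 lower in liver than in ovary, with a median difference of 1.65, and 10 were called higher and 1 lower in liver than in uterus, with a median of 2.01. Between ovary and uterus, 3 were called higher in ovary and 2 lower, with a median of 0.23. Of all features, 16.3%, 14.4% and 7.82% were called higher in these comparisons and 19.5%, 19.3% and 9.14% lower. Their medians were 0.06, -0.01 and -0.11. The range of the differences from liver to ovary was -3.44 to 5.02, where that of the 17 sterol enzymes was 1.35 to 3.71. The tissue means were ordered liver, ovary, uterus in 6 of the 11 and in 15 of the 17 sterol enzymes. Both steps of that order passed the adjusted p in 2 of the 6 and 7 of the 15. The shares of all features with that order, or with both steps past the adjusted p, were not counted.

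The 2 stearoyl-CoA desaturases, which put a double bond into stearate, lay in opposite tissues. Scd1 had levels of 4.13 and 4.04 in liver, -1.12 and -0.74 in ovary and 0.54 and 0.25 in uterus. It was 32.4-fold higher in liver than in ovary, the largest such difference of the 34 genes (limma's adjusted p = 0.000893), and 12.9-fold higher than in uterus. Scd2 had levels of -0.39 and -1.005 in liver, 2.68 and 2.81 in ovary and 2.38 and 2.64 in uterus. It was the only one of the 34 genes called lower in liver, by 10.9-fold against ovary and 9.23-fold against uterus (adjusted p = 0.00223 and 0.00271). Ovary and uterus did not differ for Scd2 beyond the spread, with a difference of 0.23 and an interval from -0.53 to 0.995, while Scd1 was 2.50-fold lower in ovary than in uterus (adjusted p = 0.0247).

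Thrsp, a small protein that promotes fat synthesis and answers to thyroid hormone and carbohydrate, had levels of 5.30 and 5.25 in liver, 0.11 and 0.54 in ovary and 3.22 and 3.31 in uterus. It was 30.9-fold higher in liver than in ovary and 7.65-fold lower in ovary than in uterus (limma's adjusted p = 0.000822 and 0.00358). Fatty acid synthase, Fasn, followed the same order, with levels of 1.51 and 1.41, -1.62 and -1.69, and -0.86 and -0.93. It was 8.66-fold higher in liver than in ovary, and 1.70-fold lower in ovary than in uterus (adjusted p = 0.0244), under the 2-fold limit. Scd1, Thrsp and Fasn are the 3 of the 34 genes for which ovary lay below uterus with an adjusted p below 0.05, which 12.3% of all features did.

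Malic enzyme, Me1, which supplies NADPH, had another order. Its levels were 1.91 and 1.86 in liver, 1.96 and 1.98 in ovary and -2.13 and -2.22 in uterus. Liver and ovary differed by -0.08, with an interval from -0.43 to 0.27, and the 3 probes of the gene gave differences from -0.69 to 0.41. Ovary exceeded uterus by 17.7-fold (limma's adjusted p = 0.00212), the largest difference between those tissues among the 34 genes, and the 3 probes gave from 3.16 to 4.82 on the log2 scale. Liver exceeded uterus by 16.7-fold (adjusted p = 0.000851). The elongase Elovl6 was likewise higher in ovary than in uterus, by 2.09-fold (adjusted p = 0.0133). It was 1.37-fold higher in liver than in ovary (adjusted p = 0.0450). Quantile normalization gave -0.41 on the log2 scale for liver against ovary (limma's adjusted p = 0.0496), so that this direction depends on the scaling.

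**Figure D3:**
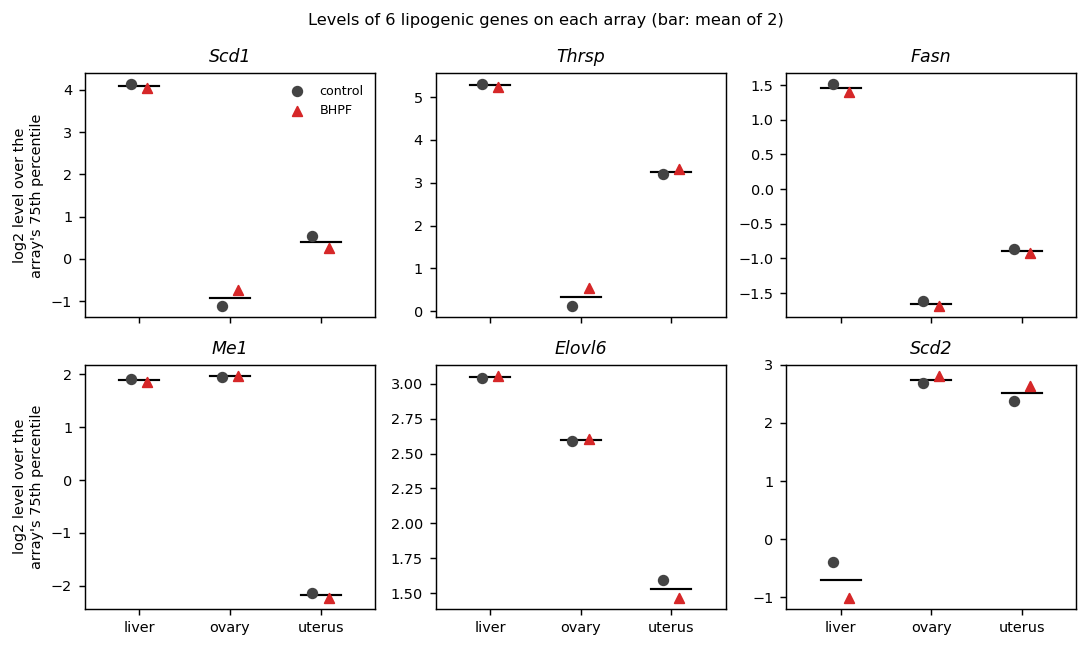
Levels of 6 lipogenic genes on each array, as log2 intensity over the 75th percentile of the array; circles are control and triangles BHPF arrays, bars the mean of both, and each panel has its own scale. Scd1, Thrsp and Fasn are lowest in ovary, Me1 and Elovl6 are lowest in uterus, and Scd2 is lowest in liver.

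The delta-6 desaturase Fads2, which opens the route to polyunsaturated fatty acids, had levels of 1.80 and 2.23 in liver, -0.61 and -0.66 in ovary and -2.23 and -1.97 in uterus. No tissues overlapped, and it was 17.3-fold higher in liver than in uterus and 2.76-fold higher in ovary than in uterus (limma's adjusted p = 0.000925 and 0.0130). Its neighbour in the route, Fads1, was 4.47-fold and 6.11-fold higher in liver than in ovary and uterus. The elongase Elovl5 was 2.59-fold and 2.79-fold higher in liver. The enzymes that make and carboxylate cytosolic acetyl-CoA differed less: Acly was 1.83-fold higher in liver than in ovary, under the limit, and 2.07-fold higher than in uterus, and Acaca was 3.13-fold and 3.89-fold higher. One of the 3 Acaca probes was not well above background on the ovary and uterus arrays.

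Adipocytes also express Scd1, Thrsp and Fasn, and the levels of 7 adipocyte markers were set beside them. On the control arrays 5 of the 7 were well above background in liver, 6 in ovary and 5 in uterus, and the summed linear level was 12.4, 3.16 and 3.59. Most of the liver sum came from Fabp4, a fatty acid carrier, at a level of 3.43. The median level of the 7 had another order, -2.78 in liver, -2.63 in ovary and -1.52 in uterus. On the BHPF arrays the sums were 9.15, 3.93 and 1.07. Adiponectin, Adipoq, was at -1.21 on the control and -4.52 on the BHPF uterus array. On the same arrays Thrsp was at 3.22 and 3.31 and Fasn at -0.86 and -0.93. The part of adipocytes in the levels of Scd1, Thrsp and Fasn was not tested. The leptin gene Lep was not well above background on any array. In ovary, Adipoq was at -3.62 on the control and -2.27 on the BHPF array.

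Without the BHPF uterus array, the median difference between liver and uterus was 2.63 in place of 2.68 for the sterol enzymes. For the lipogenic genes it was 1.96 in place of 2.01. Between ovary and uterus these medians were 0.66 in place of 0.69 and 0.28 in place of 0.23. None of the 34 moved by 1.5-fold, and the largest move was 0.40 on the log2 scale (Mvd). Between ovary and uterus the calls depended on each of the 4 arrays of those tissues, and a fit without one has 1 residual degree of freedom in place of 2. Such a fit has less precision for every feature, and the share of all features that kept a call was not counted. Lost calls are therefore not read as a trait of the 9 genes called higher in ovary and the 2 called lower. The sizes also moved. Cyp51 had the widest range of the 11 genes, from 1.02 to 1.79, while Hsd17b7 lay between 1.94 and 2.22, Insig1 between 1.82 and 2.17, Sc5d between 1.46 and 1.98, Scd1 between -1.61 and -1.04 and Thrsp between -3.14 and -2.73.

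Of 30 other genes of sterol and lipid handling, 15 were called higher and 3 lower in liver than in ovary, 20 higher and 3 lower in liver than in uterus, and 5 higher and 2 lower in ovary than in uterus. Their medians, 0.99, 1.34 and 0.14, lay below those of the sterol enzymes. Of all features, 16.3%, 14.4% and 7.82% were called higher in these comparisons and 19.5%, 19.3% and 9.14% lower. Without the BHPF uterus array, the medians of the 30 genes against uterus were 1.44 for liver and 0.11 for ovary. Soat2, which esterifies cholesterol in liver and gut, had the largest difference, 7.74 on the log2 scale against ovary and 7.21 against uterus, and its relative Soat1 lay the other way, at -3.28 and -1.09. The phosphatase Lpin1 (5.57 and 5.92), the acetyl-CoA synthetase Acss2 (3.64 and 3.79) and the ketone-using synthetase Aacs (2.63 and 2.76) were higher in liver. The elongase Elovl3 was at least 17.1-fold higher in liver than in ovary, where it was not well above background, and 3.39 higher than in uterus, where it was well above background on the BHPF array alone. Higher in liver, too, were the carboxylase Acacb (2.37 and 2.84), the citrate carrier Slc25a1 (2.35 and 2.57), the lysosomal sterol exporter Npc1 (1.83 and 2.68) and the fatty acid-binding Fabp5 (1.49 and 4.02). The transcription factors of lipogenesis Mlxipl (2.38 and 2.50) and Nr1h3 (3.90 and 2.26) were higher in liver as well. The acyltransferase Dgat2, which makes triglyceride, was higher in liver by 4.20 and 1.68 and lower in ovary than in uterus by 2.53, the same order as Thrsp. Nr1h3 was also lower in ovary than in uterus, at -1.65. Higher in ovary than in uterus were Pnpla3 (2.73), Fabp5 (2.54), Soat1 (2.18) and Mid1ip1 (1.08), the last of these a paralogue of Thrsp. So was the acyltransferase Gpam, by at least 6.14-fold, as it was not well above background in uterus. Lower in liver were also G6pdx, another source of NADPH, at -1.21 and -1.58, Ggps1 at -1.04 against ovary and Mylip at -1.41 against uterus. The remaining calls in liver were Acat2, Elovl1 and Abcg1, at 1.04, 1.24 and 1.21 against ovary, and Elovl1, Mid1ip1, Mbtps2, Dgat1, Pnpla3, Abca1 and Acsl3, between 1.002 and 3.47 against uterus, with Gpam at least 7.84-fold higher.

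The second question was whether BHPF moved these genes within a tissue, which is 1 array against 1 and has no test. A change of at least 2-fold between the arrays was counted. None of the 34 genes reached it in liver, in ovary or in uterus, where 7.98%, 1.44% and 3.4% of all features evaluated did. At a limit of 1.5-fold, 1 gene passed in liver, 0 in ovary and 3 in uterus, where 18.3%, 4.57% and 8.54% of all features did. The median log2 ratio of BHPF over control was 0.02 for the sterol enzymes and -0.05 for the lipogenic genes in liver, 0.03 and 0.07 in ovary, and -0.03 and -0.07 in uterus. Over all features these medians were 0.07, 0.00 and 0.01. With the 50th percentile in place of the 75th, the liver medians were -0.30 and -0.37, and that of all features moved by -0.29.

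**Figure D4:**
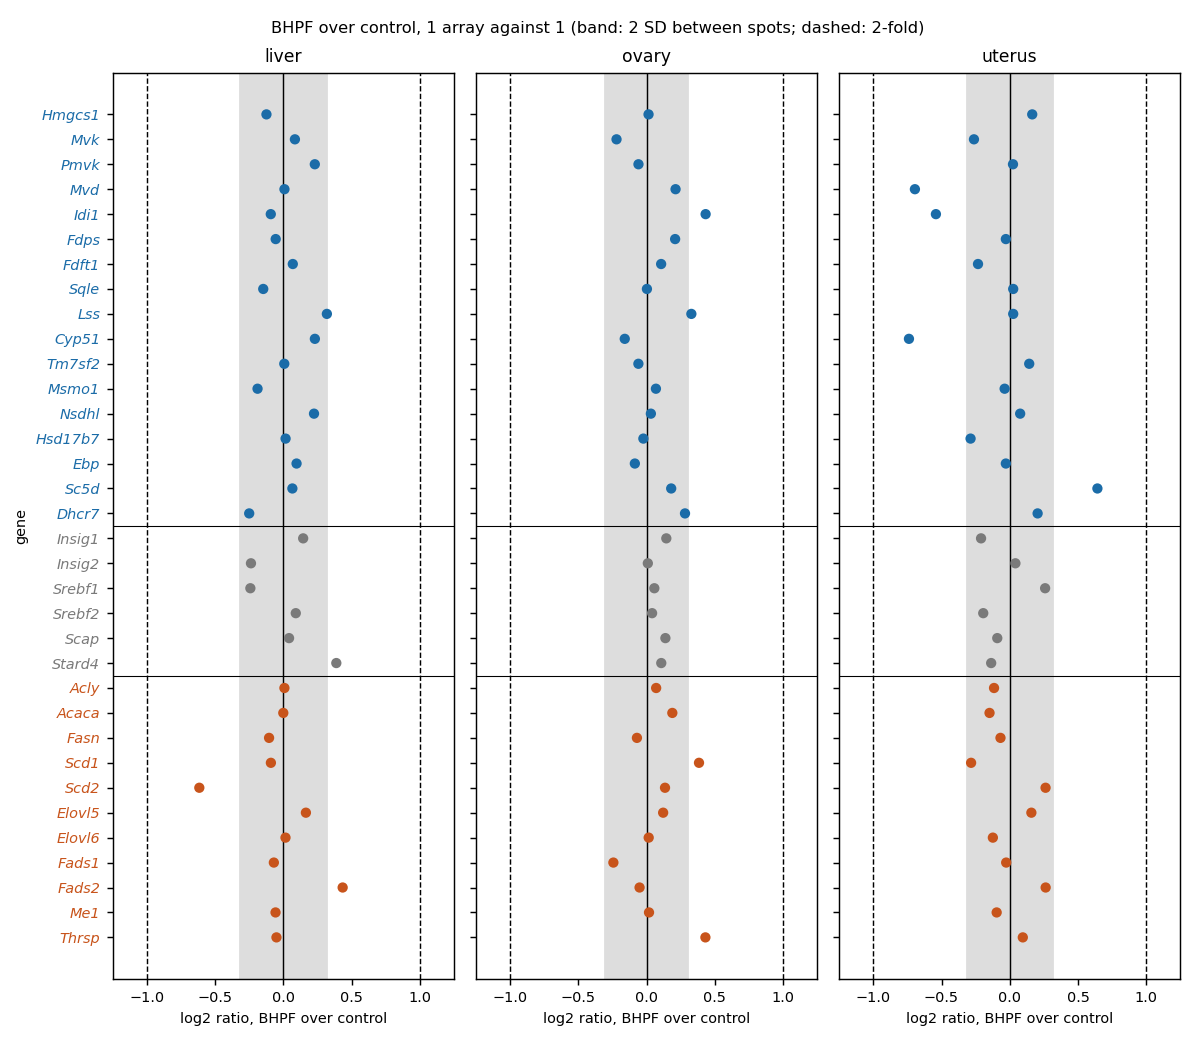
Log2 ratio (BHPF over control, 1 array each) for each of the 34 genes in each tissue. The grey band is 2 SD of a ratio as given by repeat spots on the arrays, and dashed lines mark 2-fold. No point reaches a dashed line, and 30 of 34 points lie inside the band in each tissue.

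The noise of a single spot was taken from probes with at least 5 spots an array. It gave a ratio an SD of 0.16 in liver, 0.15 in ovary and 0.16 in uterus on the log2 scale, which covers the array and not the animals. In liver, 3 genes lay more than 2 SD above 0 and 1 below it. These were Fads2 (0.43), Stard4 (0.39) and Lss (0.32), and Scd2 (-0.62). In ovary 4 lay above and 0 below: Idi1 (0.43), Thrsp (0.43), Scd1 (0.38) and Lss (0.33). In uterus 1 lay above, Sc5d (0.64), and 3 below, Cyp51 (-0.74), Mvd (-0.69) and Idi1 (-0.54). Beyond 2 SD lay 37.2%, 17.7% and 24.5% of all features in the 3 tissues.

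The genes past 1.5-fold were Scd2 in liver, whose levels are given above, and Cyp51, Mvd and Sc5d in uterus. Cyp51 had levels of -3.14 and -3.88 in control and BHPF uterus, 0.23 and 0.46 in liver and -2.02 and -2.18 in ovary. Mvd had 0.00 and -0.69 in uterus, 2.05 and 2.06 in liver and 0.02 and 0.24 in ovary. The BHPF uterus array was the lowest of the 6 for both genes, and each has 1 probe. With the normexp background correction the uterus ratio of Cyp51 was -0.29 in place of -0.74, and that of Mvd -0.67. Idi1 had levels of 0.88 and 1.31 in ovary, 0.67 and 0.13 in uterus and 3.18 and 3.08 in liver, so that its ratio was positive in ovary and negative in uterus. Probes of 1 gene could differ by as much as these ratios. The 2 probes of Insig2 gave -0.54 and 0.06 in liver, and the 2 of Pmvk -0.22 and 0.26 in uterus.

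Sc5d, the only gene of the 34 past 1.5-fold upwards, was higher on the BHPF uterus array, on which hepatocyte markers were also high. Under the headings of the authors' table the ratio of Sc5d is -0.64, and Cyp51 (0.74) and Mvd (0.70) are the genes past 1.5-fold upwards. All 10 hepatocyte markers were at least 2-fold higher on that array, with log2 ratios from 2.65 to 5.49 and a median of 4.83. Their linear excess over the control uterus was 1.12% to 13.2% of their control liver level, with a median of 6.29%. The excess of Sc5d was 1.80% of its liver level, and Sc5d was also the gene with the largest liver level relative to uterus on the control arrays, 31.1-fold. Other genes with large ratios of liver to uterus did not show such a ratio: Insig1 (24.2-fold) had a uterus ratio of -0.21, Srebf1 (17.1-fold) of 0.26, Me1 (16.5-fold) of -0.10 and Fads2 (16.3-fold) of 0.26. The part of hepatocyte RNA in these ratios was not tested. Among the 30 other genes, 1 was changed by at least 2-fold, in uterus. This was Elovl3, higher by at least 1.69 on the log2 scale, a bound since it was not well above background on the control array. Soat2 (0.76) was the other one past 1.5-fold in uterus, and G6pdx (-0.96) the only one in liver. Of the other genes with a difference from liver to uterus above that of Elovl3, Lpin1 had a uterus ratio of 0.43, Pnpla3 of 0.28, Fabp5 of -0.16 and Acss2 of -0.20.

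**Figure D5:**
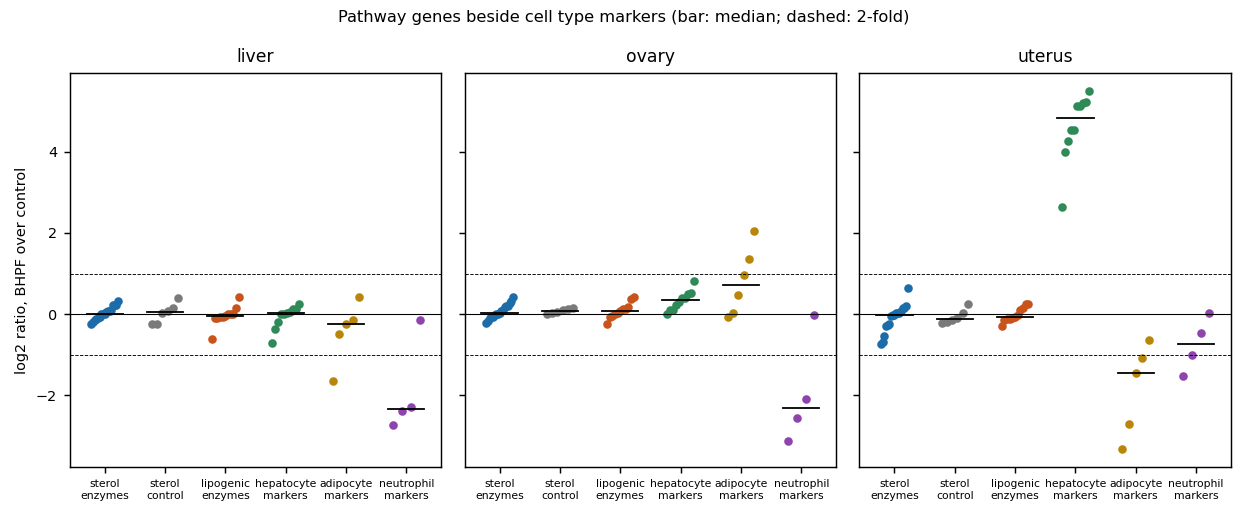
Log2 ratio of BHPF over control for the 3 groups of pathway genes and for markers of hepatocytes, adipocytes and neutrophils, by tissue; points are genes, bars medians and dashed lines 2-fold. The pathway genes stay within 2-fold in each tissue, while hepatocyte markers are higher in uterus by a median of 4.83 and 3 of 4 neutrophil markers are at least 2-fold lower in liver and in ovary.

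Some markers of other cells changed by at least 2-fold, which none of the 34 genes did. Several of the markers were chosen with earlier results of these data known. Of all features, 7.98% in liver, 1.44% in ovary and 3.4% in uterus changed by at least 2-fold. The uterus ratios below turn their sign under the headings of the authors' table. Of 5 adipocyte markers evaluated in uterus, 4 were at least 2-fold lower with BHPF, and of 6 in ovary 2 were at least 2-fold higher. Among these were Adipoq, higher by 1.35 in ovary and lower by 3.31 in uterus. In ovary, Thrsp and Scd1 had ratios of 0.43 and 0.38, and the part of adipocytes in them was not tested. In uterus Scd1 had a ratio of -0.28 and Thrsp of 0.10. Of 4 neutrophil markers, 3 were at least 2-fold lower in liver, 3 in ovary and 2 in uterus. None of the ovarian and uterine markers changed 2-fold in their own tissue.

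A BHPF effect common to the 3 tissues was fitted in the same model, with each tissue as a pair. Of 38439 features, 0 passed an adjusted p of 0.05 in limma, and 2043 (5.31%) had an unadjusted p below 0.05, none of them among the 34 genes. The effects of the 34 lay between -0.22 (Cyp51) and 0.30 (Sc5d), with a median of -0.002, and the smallest adjusted p was 0.760, for Lss and Sc5d. Lss was higher with BHPF in 3 of 3 tissues, by 0.32 in liver, 0.33 in ovary and 0.03 in uterus, with a common effect of 0.22 and a 95% interval from -0.12 to 0.57. Sc5d was also higher in 3 of 3, with an interval from -0.16 to 0.75. So were Elovl5, by 0.16 in liver, 0.12 in ovary and 0.16 in uterus, and Nsdhl, by 0.22, 0.03 and 0.08. For Fasn, which was lower in 3 of 3 by 0.07 to 0.11, the interval ran from -0.36 to 0.20. The share of all features with 1 sign in 3 of 3 tissues was not counted. These tallies also rest on the sign in uterus. Under the headings of the authors' table the uterus ratio was -0.024 for Lss, -0.64 for Sc5d and 0.069 for Fasn. It was -0.16 for Elovl5 and -0.075 for Nsdhl, so that each of these genes had 2 of 3. Without the uterus pair the common effect was 0.32 for Lss, 0.12 for Sc5d and 0.04 for Cyp51, and the smallest adjusted p of the 34 genes in limma was 0.828. With 3 pairs, an exact sign-flip test cannot give a p below 0.25, so that no single gene could pass outside the fit.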

How the data were processed

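RNA of livers, ovaries and uteri was hybridized to 6 one-colour arrays, 1 pool of 3 mice each. The authors scanned them and deposited, per the file headers, a background-subtracted intensity for each spot on a linear scale from Agilent Feature Extraction, with flags for spots well above background. The headers give version 11.5.1.1, where the submitters' processing notes name 9.1. A second file deposited by the authors holds log2 values after a percentile shift in GeneSpring. Each of its columns differed by a constant from 1 array, within 0.001, but the column headed control uterus held the BHPF uterus array and the reverse. Each scanner file was read under its own sample's labels, and which labelling is right is not known from the sources used here.

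After control and outlier spots were removed, spots of 1 probe were averaged as log2 intensities, from which each array's 75th percentile over 55681 probes was subtracted. Symbols came from probe accessions matched to RefSeq (26762 probes). Genes are means of their probes that had a value on all arrays and stood well above background on any of them. Mvk lost 1 of its 2 probes in the levels and tissue fit, because of an outlier spot on the control ovary array. Tissues and the BHPF effect common to them were fitted with limma 3.58.1 in R 4.3.3 on 38439 features (tissue plus treatment, 2 residual degrees of freedom), with Benjamini-Hochberg adjusted p-values over all of them. Fits were tested on simulated data. The arrays share 1 slide, no array is repeated, and the 2 pools of a tissue are 1 control and 1 BHPF pool. P-values of tissues therefore rest on how far the tissues depart from a common BHPF shift, with limma moderating that spread across features. A BHPF effect in 1 tissue alone enters this spread, and the spread between like pools was not measured. Within a tissue a gene was counted as changed at 2-fold. A gene not well above background in 1 group was compared with the lowest intensity well above background there, which gives a bound. Their number limits the precision of the arrays.

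Values on all 6 arrays are given, in each comparison, for all genes past the threshold or, where over 8 passed, for the 4 largest differences in each direction, and for genes of the pathway chosen after their values were seen (Hmgcs1, Fasn, Cyp51, Mvd, Idi1). The genes, the other lists and the comparisons were chosen with earlier results of these data known. Alternatives covered background correction, scaling, use of the authors' table, how dim probes were filtered, the probe of a gene, the fold limit, the treatment term and leaving out arrays. Some genes of these pathways are not reported here.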

Additional observations from a re-analysis of the deposited data

Results flagged for a closer look

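Idi1, the isomerase of the isoprenes, had a log2 ratio of BHPF over control of 0.43 in ovary and -0.54 in uterus. Both ratios lay beyond 2 SD of the noise between spots and in opposite directions, which is why the gene is listed. Under the headings of the authors' table, in which the uterus arrays are exchanged, the uterus ratio was 0.54 and the signs did not differ. With 1 array for each condition the difference between the tissues was not tested.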

How the results depend on the processing

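The control and BHPF array of a tissue form a pair through the tissue term, and the tissue differences are paired by the treatment term. The labels give no replicate numbers to pair by. Across the alternatives other than leaving out an array, the number of the 34 genes called higher in liver was 22 to 31 against ovary (28 as reported). Against uterus it was 28 to 33 (32), and 8 to 11 were called higher in ovary than in uterus (9). The shares of all features called under these alternatives are not given here. The low end against ovary was quantile normalization, under which 12 of the 17 sterol enzymes were called: Hmgcs1, Fdps, Fdft1, Sqle and Msmo1 lay between 0.57 and 0.89. Scd2 was called lower in liver in every fit. Leaving out 1 array gave 26 to 28 higher in liver against ovary and 31 to 32 against uterus. Between ovary and uterus it gave 1 to 9 higher and 0 to 2 lower, with 0 to 5 sterol enzymes higher and 1 to 3 lipogenic genes higher and 0 to 2 lower.

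Scaling to the 50th percentile moved the median of all features by -0.29 in liver for BHPF over control, and by 0.32, 0.46 and 0.14 for liver against ovary, liver against uterus and ovary against uterus. With it the sterol enzymes had a median ratio of -0.30 and the lipogenic genes of -0.37 in liver, against 0.02 and -0.05 as reported, and the share of 2-fold changes in liver that were upwards was 62.2% of all features, against 85.7%. Of the tissue calls of all features, 63.3% were upwards in liver against ovary and 65.2% against uterus, beside 45.5% and 42.8%, and with the 75th percentile of probes detected on all arrays these were 28.5% and 26.4%. With a 1.5-fold limit, 1 gene passed in liver and 3 in uterus. Taking the authors' table as headed turns the sign of each uterus ratio, and exchanging its uterus columns, an alternative chosen after seeing the data, restores it.

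Differences under the limit of a call changed sign in some settings. Liver against ovary, Me1 was 0.24 with the 50th percentile and 0.0399 with its brightest probe, and with quantile normalization Scap was -0.13 and Elovl6 -0.41. Ovary against uterus, the 50th percentile gave Insig2 0.0871 and Srebf1 0.0781, quantile normalization gave Srebf1 0.0488, normexp gave Acaca -0.0025 and the brightest probe gave Tm7sf2 -0.0555. With 1 array left out, Tm7sf2 lay between -0.0716 and 0.0978, Insig2 between -0.1285 and 0.0273, Srebf1 between -0.2354 and 0.1163, Srebf2 between -0.0883 and 0.1714 and Scd2 between -0.0179 and 0.485. The cause was not tested. In a fit without 1 array, the remaining one of that tissue is assumed to vary like the others. The single array for each condition limits what can be seen of BHPF.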
